A study of Mus musculus with 25 samples.

Results

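Whole platelets and the platelet pellet were compared as additions to mouse mammary tumour cells, on gene-level expression arrays of 6 of the 25 samples in the series. The 3 arrays of cells with whole platelets and the 3 arrays of cells with the pellet were chosen by the source names of the samples, and the title numbers 7, 8 and 9 give 1 array of each kind. The cells are Ep5 (EpRas), a Ras-transformed mouse mammary epithelial line that the labels give as C57BL/6, and all platelets came from wild-type C57BL/6 mice. The question is what the soluble part of platelets adds to the platelet bodies. Genes were read from probe sets with 1 gene symbol, and the probe set of highest mean stood for its gene, which gave 19938 genes.

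In the whole platelet group, about 1000 platelets per tumour cell were left on the cells for 24 h. In the pellet group, platelets had been treated with thrombin and spun down, and the pellet was resuspended and left on the cells for 24 h. The labels give no thrombin treatment for whole platelets and no ratio of pellet to cells. The soluble part, thrombin treatment and dose therefore cannot be told apart in this comparison. Another 3 arrays hold cells with the supernatant of such a spin, called releasate, and 3 arrays hold cells alone. The series also has exon arrays of other samples of the same line, with 5 arrays of cells with platelets, 5 of cells alone and 3 of cells that met platelets only at lysis. The labels do not say whether the arrays of a group come from separate cultures or platelet donors, so each p value measures only the spread between these arrays.

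Platelets are blood cell fragments without a nucleus that carry RNA from the megakaryocytes that shed them. Thrombin makes them empty their granules, and the growth factors and chemokines set free, TGF-beta and platelet factor 4 among them, make up the releasate. The bodies left behind keep surface receptors, adhesion proteins and much of the RNA. In work on tumour spread, platelet TGF-beta together with contact between platelet and tumour cell is known to push epithelial tumour cells toward an invasive, mesenchymal-like state.

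The deposited values are log2 expression values, in which a difference of 1 is 2-fold and a difference of 0.5 is 1.41-fold. The median probe set of each of the 6 arrays stood at 5.56 to 5.63, and pairs of arrays correlated at 0.984 to 0.996. The tumour cell label held on all 6 arrays. The epithelial adhesion gene Epcam had log2 levels of 12.12, 11.86 and 12.13 with whole platelets 7, 8 and 9, against 12.05, 11.88 and 12.16 with pellet 7, 8 and 9. Of the gene arrays, 2 carry a platelet label that goes against the source name: whole platelets 9 is tagged none, and alone 8 is tagged with platelets. Alone 8 had log2 levels of 4.78 for Pf4, 4.60 for Clec1b and 5.08 for Cd226, within or below those of the other arrays of cells alone. For the platelet genes Rgs18 (4.67) and Nrgn (5.51) it was the highest array of cells alone. Its median over the 9 platelet RNA genes described below was 0.03 above the mean of cells alone, against 0.01 on alone 7 and on alone 9. The platelet RNA of whole platelets 9, given below, lay above every array of cells alone for Pf4, Clec1b and Cd226. Pellet 7 stood apart in the group means described below, and it had the lowest weight, 0.357, when limma estimated the quality of each array. Whole platelets 9 came next with a weight of 0.479, against 2.85 for whole platelets 7 and 2.55 for pellet 9.

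No gene passed the test of whole platelets against pellet. In a limma fit of the 12 gene arrays in 4 groups, 0 of 19938 genes (0%) passed a Benjamini-Hochberg adjusted p of 0.05. At an unadjusted p under 0.05 there were 503 genes (2.52%), with 222 higher and 281 lower with whole platelets, where a threshold of 0.05 alone would pass 997. The smallest adjusted p was 0.974. The gene of smallest unadjusted p was Slc25a20, the carnitine carrier of mitochondria, which is named here after its values were seen. Its log2 levels were 8.36, 8.35 and 8.40 with whole platelets, against 8.0, 8.16 and 8.11 with pellet (unadjusted p = 0.000303, limma). In the same fit, 133 genes (0.667%) passed for whole platelets against alone and 83 (0.416%) for pellet against alone, so 3 arrays a group could yield calls. Of these, 82 (0.411%) rose and 51 (0.256%) fell with whole platelets, and 47 (0.236%) rose and 36 (0.181%) fell with pellet.

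The size of difference that these arrays could miss was read from the 95% intervals of the fit. The fit gives each gene 1 spread for all 4 groups, so an interval can be too narrow where the platelet groups vary more. Mmp9 had standard deviations of 0.81 with whole platelets and 0.79 with pellet, against 0.50 with releasate and 0.07 alone. In Serpinb2 the order was the other way, with 0.28 and 0.71, against 0.94 and 1.10. The median absolute difference was 0.0588 on the log2 scale, and 99% of genes lay below 0.346. The median interval reached 0.175 to each side of its estimate. For 18038 genes (90.5%) the whole interval lay within 0.5 of no difference, and for 19801 genes (99.3%) it lay within 1. These shares were lower among the genes that changed with platelets on the exon arrays, described below. Of 236 that rose, 66.1% had the interval within 0.5 and 92.8% within 1. Of 323 that fell, 67.5% had it within 0.5 and 96.0% within 1. Differences of 0.5 or more were estimated for 19 genes, with 12 higher and 7 lower with whole platelets, and for 0 genes did the estimate reach 1. All 12 genes that were higher had their lowest value on pellet 7 and their highest on whole platelets 9, and all 7 that were lower had their highest value on pellet 7. Distances between arrays of different groups spanned those between arrays of 1 group. The median absolute difference between a whole platelet array and a pellet array was 0.0737 to 0.146 on the log2 scale, against 0.0874 to 0.116 within whole platelets and 0.0797 to 0.128 within pellet.

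RNA that platelets bring was present in both groups, and the levels of most such genes overlapped. The exon arrays, which share no sample with these, offer a choice of such genes: 9 of 18997 genes (0.0474%) were higher in cells joined with platelets at lysis than in cells alone. They are Pf4, Ppbp, Rgs18, Alox5ap, Clec1b, Cd226, Srgn, Gng11 and Nrgn, and all 9 were measured here. In bulk RNA, fewer platelets and less RNA per platelet cannot be told apart.

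Pf4 encodes platelet factor 4 and Ppbp its neighbour pro-platelet basic protein, both chemokines of the alpha granule. Their upstream sequences are shown because they are the genes most raised by platelet RNA on the exon arrays and lie side by side on chromosome 5. Each run holds the 250 bases before the transcription start given by RefSeq for mouse build GRCm38.p6, read 5′ to 3′ on the gene's strand, the + strand for both, at chr5:90772185-90772434 for Pf4 and chr5:90768268-90768517 for Ppbp. Capitals mark letters of the motifs searched on both strands, GGAAGT (an ETS factor core), AGATAA (read by GATA factors), TGANTCA (read by AP-1) and GGAATG (read by TEAD factors), and in these runs no matches overlap.
Pf4: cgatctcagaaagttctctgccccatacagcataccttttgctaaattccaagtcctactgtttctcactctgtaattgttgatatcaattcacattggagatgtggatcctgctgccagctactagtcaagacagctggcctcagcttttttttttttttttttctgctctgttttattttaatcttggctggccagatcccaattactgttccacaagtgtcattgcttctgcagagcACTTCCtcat
Ppbp: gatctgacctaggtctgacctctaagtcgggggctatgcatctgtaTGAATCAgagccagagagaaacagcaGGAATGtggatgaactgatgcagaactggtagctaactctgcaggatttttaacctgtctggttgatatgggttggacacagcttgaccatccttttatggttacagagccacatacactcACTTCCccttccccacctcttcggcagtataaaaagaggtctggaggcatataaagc
The ETS letters lie 10 to 5 bases before the start of Pf4 and 57 to 52 bases before that of Ppbp, on the minus strand in both. Ppbp also holds the AP-1 letters 204 to 198 bases and the TEAD letters 178 to 173 bases before its start. Of 32851 mouse windows of this length, 19.7% hold the ETS letters, 9.99% the GATA letters, 6.75% the AP-1 letters and 12.6% the TEAD letters. A match describes the letters only, and no binding was measured here.

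Pf4 (probe set 10523134) had log2 levels of 6.90, 6.90 and 6.01 with whole platelets, against 5.79, 6.73 and 6.52 with pellet. The groups overlapped, with the lowest value on pellet 7 and the next on whole platelets 9. The difference was 0.25 (95% interval −0.30 to 0.81, limma). All 6 values lay above those of releasate (4.76 to 4.78) and of cells alone (4.63 to 4.83), and Pf4 rose both with whole platelets (1.86, limma adjusted p = 0.0101) and with pellet (1.60, adjusted p = 0.0265) against alone.

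Ppbp (probe set 10523128) had log2 levels of 10.25, 10.51 and 10.39 with whole platelets, against 9.72, 10.23 and 10.11 with pellet. The groups did not overlap, as in 466 genes (2.34%) that lay higher with whole platelets, and the interval of the difference of 0.36 reached from −0.56 to 1.28. Cells alone already had levels of 7.88 to 9.84, and releasate arrays 7.18 to 8.43, so the contrast of this probe set with cells alone was small beside its spread (1.42 with whole platelets and 1.06 with pellet, limma adjusted p = 0.212 and 0.430).

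Clec1b, the platelet receptor for podoplanin, had the smallest p of the 9 (probe set 10542172). Its log2 levels were 5.24, 5.38 and 5.36 with whole platelets, against 5.01, 5.05 and 5.22 with pellet. The groups did not overlap, and the difference was 0.23 (95% interval 0.09 to 0.38, limma unadjusted p = 0.00399, adjusted p = 0.974). Against alone it was 0.74 higher with whole platelets and 0.50 with pellet (limma adjusted p = 0.00162 and 0.0134).

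Cd226, an adhesion receptor of platelets and lymphocytes, had log2 levels of 6.08, 5.82 and 6.17 with whole platelets, against 5.78, 5.83 and 5.90 with pellet. Its groups overlapped by the lowest whole platelet value alone, and cells alone had 5.08 to 5.11. Rgs18, a regulator of G protein signalling in platelets, had 5.27, 5.11 and 5.07 with whole platelets, against 4.77, 5.38 and 4.88 with pellet. Here the highest value of all 6 was pellet 8. Gng11, a G protein gamma subunit, had 7.34, 7.33 and 6.66 with whole platelets, against 7.04, 7.19 and 6.90 with pellet, and the spread within whole platelets was wider than the gap between the means.

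Of the remaining genes, Alox5ap, which helps make leukotrienes, had 6.22, 6.25 and 5.98 with whole platelets, against 5.94, 6.08 and 5.92 with pellet. Srgn, a granule proteoglycan, had 5.42, 5.09 and 5.21 with whole platelets, against 5.19, 4.93 and 5.08 with pellet. Nrgn, a calmodulin-binding protein, had 5.52, 5.40 and 5.83 with whole platelets, against 5.45, 5.22 and 5.54 with pellet. Their groups overlapped, with differences of 0.17, 0.17 and 0.18, and cells alone lay close to both.

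Over the 9 genes the difference between whole platelets and pellet was positive in 9, with a median of 0.18 on the log2 scale, where 47.4% of all genes were positive and the median of all genes was −0.01. No member passed the threshold, and 1 of the 9 had an unadjusted p under 0.05, where 2.52% of all genes did. The median level of the 9 genes above cells alone was 0.70, 0.72 and 0.50 with whole platelets, against 0.42, 0.73 and 0.54 with pellet. The lowest of these 6 medians was pellet 7, the highest was pellet 8, and the groups overlapped. Against alone, Pf4, Clec1b and Cd226 passed the threshold both with whole platelets (0.411% of all genes rose) and with pellet (0.236%), and 0 of the 9 passed with releasate. Releasate arrays had medians of 0.02, 0.02 and −0.06. Without pellet 7 the median difference was 0.16, and without both pellet 7 and whole platelets 9 it was 0.21. The wider platelet list of 30 genes, of which 25 were measured, gave 17 positive and a median of 0.08. Its glycoprotein genes, such as Itga2b (4.94, 4.90 and 4.94 with whole platelets, against 5.24, 4.95 and 4.96 with pellet) and Gp9 (5.13, 5.04 and 5.14 with whole platelets, against 5.10, 5.0 and 5.03 with pellet), lay below the array medians in both groups. Itga2b lay lower with whole platelets without overlap, opposite to Ppbp and Clec1b. Of the 25 measured genes of this list, 2 lay higher and 2 lower without overlap, where 2.34% and 3.82% of all genes did.

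**Figure D1:**
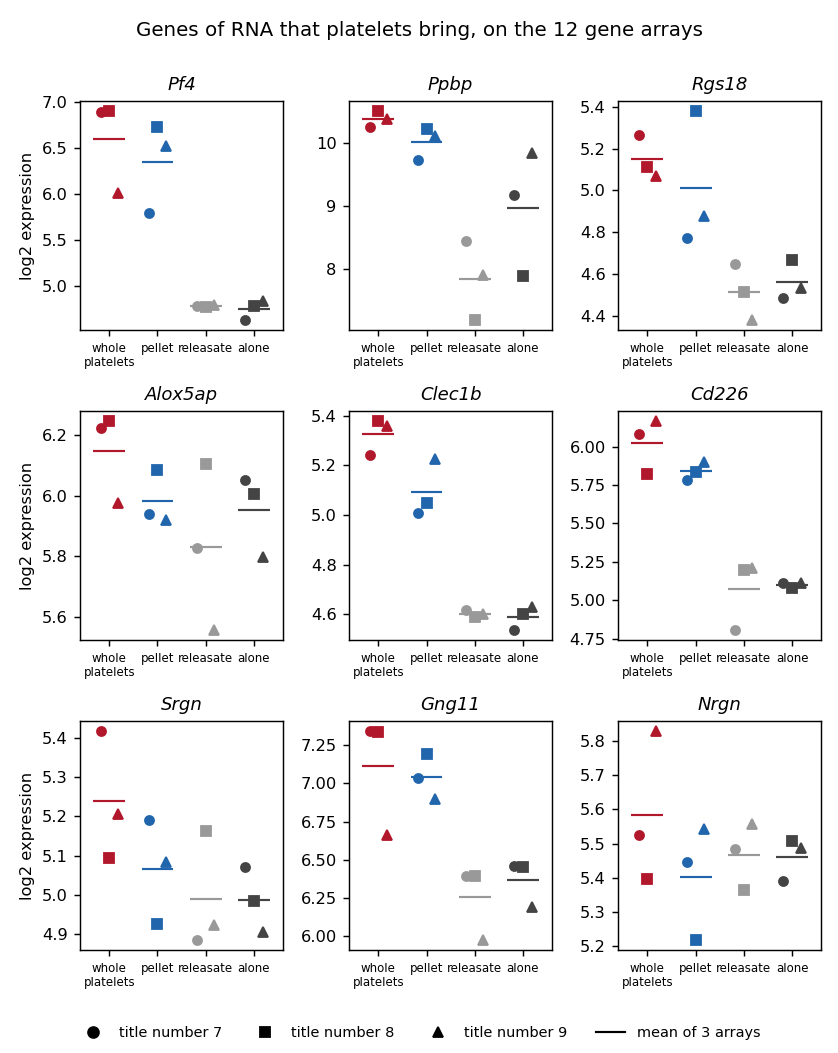
Log2 expression (y axis) of the 9 genes that mark platelet RNA on the exon arrays, in whole platelet, pellet, releasate and alone gene arrays (x axis, 3 arrays each, symbols by title number, lines at the means). Pf4, Clec1b and Cd226 lie higher in both platelet groups than in releasate and alone, and whole platelet and pellet arrays overlap for all but Ppbp and Clec1b.

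The response of the tumour cells was present in both groups as well. It was looked for in genes that the exon arrays had called, since those samples are not among the gene arrays: 241 of 18997 genes (1.27%) rose and 329 (1.73%) fell with platelets against both cells alone and cells mixed with platelets at lysis. Either control by itself gave 864 genes (4.55%) against alone and 699 (3.68%) against the mix at lysis. The 10 largest rises and the 10 largest falls without overlap of the exon groups are described first, a choice that was added after values had been seen.

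Mmp9 (probe set 10478633), whose secreted protease degrades gelatin and basement membranes, had log2 levels of 7.33, 6.80 and 8.39 with whole platelets, against 6.05, 7.0 and 7.62 with pellet. The groups overlapped, with the highest value on whole platelets 9 and the lowest on pellet 7. The difference was 0.62 (95% interval −0.32 to 1.56, limma with the spread pooled over 4 groups). A difference of 1.56 was thus not excluded at this number of arrays. Cells alone had 5.34 to 5.48 and releasate 5.24 to 6.13. Without pellet 7 the difference was 0.20.

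Chst2, a sulfotransferase that modifies cell-surface carbohydrates (probe set 10595718), had log2 levels of 7.42, 7.49 and 7.64 with whole platelets, against 7.30, 7.44 and 7.55 with pellet. Cells alone had 6.67 to 6.74, and the gene rose with whole platelets (0.80, limma adjusted p = 0.00163) and with pellet (0.72, adjusted p = 0.00408). The difference between the platelet groups was 0.08, and its interval reached from −0.08 to 0.24. Nt5e, the surface enzyme CD73 that makes adenosine (probe set 10587639), had 11.69, 11.84 and 11.93 with whole platelets, against 11.63, 11.82 and 11.55 with pellet, and 10.55 to 10.85 in cells alone. Its difference was 0.15 (95% interval −0.09 to 0.40), beside rises of 1.08 and 0.92 over alone with whole platelets and with pellet (limma adjusted p = 0.00217 and 0.00932).

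The sequences before the start sites of Chst2 and Nt5e are shown because these genes had the smallest adjusted p of the 10 rises against alone in both platelet groups. Both are RefSeq GRCm38.p6, with Chst2 on the minus strand at chr9:95407271-95407520 and Nt5e on the + strand at chr9:88327359-88327608. Neither run of 250 bases holds any of the 4 motifs searched above, so no letters are in capitals.
Chst2: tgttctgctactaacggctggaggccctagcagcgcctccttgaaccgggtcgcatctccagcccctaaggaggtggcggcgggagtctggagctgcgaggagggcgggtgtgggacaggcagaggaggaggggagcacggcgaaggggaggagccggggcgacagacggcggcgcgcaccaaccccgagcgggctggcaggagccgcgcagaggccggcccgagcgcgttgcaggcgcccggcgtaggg
Nt5e: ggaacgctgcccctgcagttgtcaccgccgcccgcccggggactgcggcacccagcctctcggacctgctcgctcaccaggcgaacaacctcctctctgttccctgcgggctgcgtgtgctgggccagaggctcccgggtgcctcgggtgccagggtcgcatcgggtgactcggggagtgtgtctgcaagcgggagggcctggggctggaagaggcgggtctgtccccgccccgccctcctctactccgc

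Pellet 7 was the lowest of the 6 arrays in 8 of the 10 rises, Mmp9, C1qtnf1 and Chst2 included, and not in Vegfc and Nt5e. Vegfc, a growth factor for lymphatic vessels, had 8.51, 8.93 and 8.51 with whole platelets, against 8.62, 8.84 and 8.76 with pellet. The groups lay on top of each other, both above 7.41 to 7.77 in cells alone, and the difference was −0.09 (95% interval −0.43 to 0.24). C1qtnf1, a secreted relative of complement C1q, had 6.07, 6.12 and 5.99 with whole platelets, against 5.69, 6.06 and 6.12 with pellet, a difference of 0.10 (95% interval −0.14 to 0.35).

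Ccn4, a matricellular target of Wnt signalling, had 8.58, 8.94 and 9.20 with whole platelets, against 7.72, 8.87 and 8.64 with pellet (difference 0.50, 95% interval −0.09 to 1.09). Ncam1, a neural cell adhesion molecule, had 9.12, 9.20 and 9.83 with whole platelets, against 7.73, 9.49 and 8.96 with pellet (difference 0.66, 95% interval −0.14 to 1.46). Ctsw, a cathepsin, had 9.81, 9.81 and 10.34 with whole platelets, against 8.90, 10.08 and 10.05 with pellet (difference 0.31, 95% interval −0.40 to 1.01). Clu, which encodes the secreted chaperone clusterin, had 10.95, 10.78 and 11.95 with whole platelets, against 10.01, 11.10 and 11.20 with pellet, and Jag1, a Notch ligand, had 8.36, 8.37 and 9.04 with whole platelets, against 7.65, 8.17 and 8.52 with pellet. Without pellet 7 the difference was 0.16 for Ccn4, 0.16 for Ncam1, −0.08 for Ctsw, 0.08 for Clu and 0.25 for Jag1. For whole platelets against pellet, no adjusted p of these genes was under 0.05 with or without that array.

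**Figure D2:**
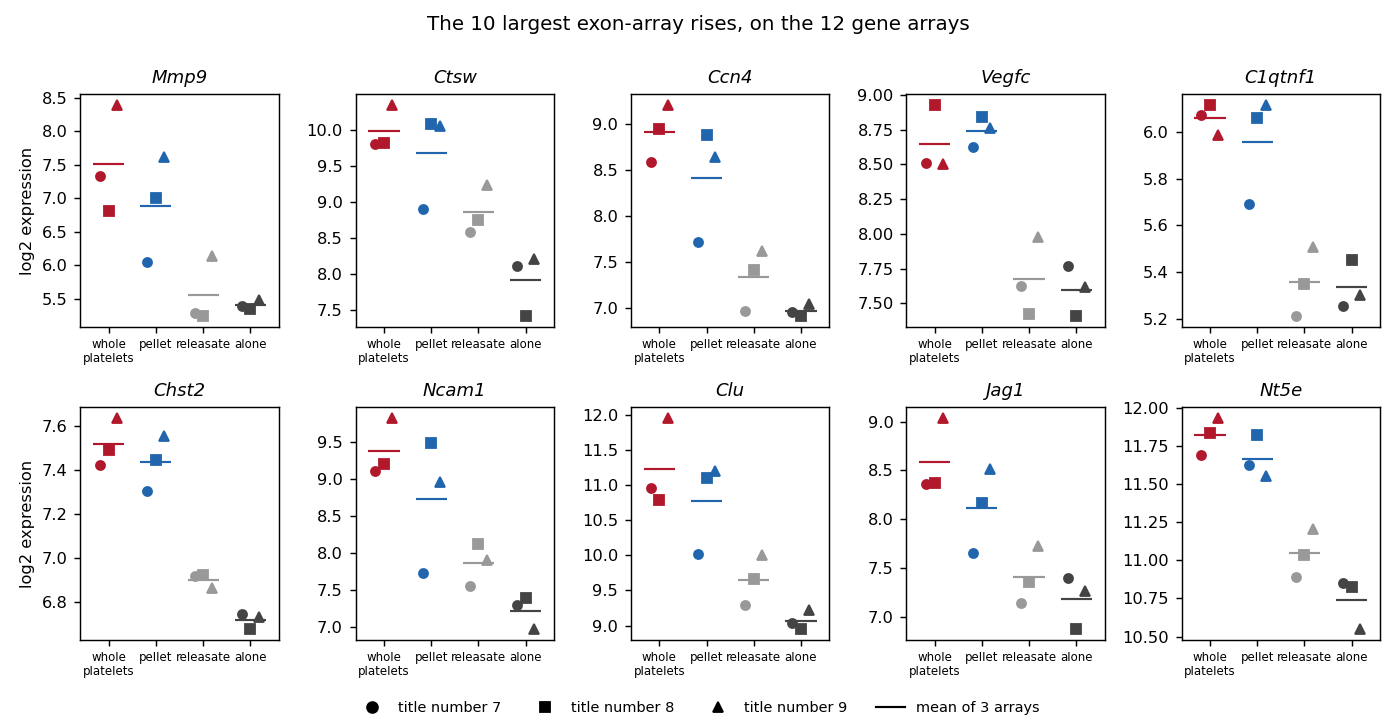
Log2 expression (y axis) of the 10 genes with the largest rises on the exon arrays, in whole platelet, pellet, releasate and alone gene arrays (x axis, 3 arrays each, symbols by title number, lines at the means). The circle of pellet 7 lies lowest of the 6 whole platelet and pellet arrays in all genes but Vegfc and Nt5e, by the most in Ncam1.

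The 10 largest falls of the exon arrays all overlapped between whole platelets and pellet. Bpifb4, a secreted member of the BPI family, had 5.88, 5.38 and 5.34 with whole platelets, against 5.79, 5.46 and 5.66 with pellet, while cells alone averaged 7.14. It fell against alone with whole platelets (−1.61, limma adjusted p = 0.0272) and with pellet (−1.50, adjusted p = 0.0481), and the difference between the groups was −0.10 (95% interval −0.71 to 0.51). Id2, an inhibitor of helix-loop-helix factors, had 7.96, 6.34 and 6.47 with whole platelets, against 8.29, 6.98 and 6.68 with pellet. Here title number 7 was high in both groups, and the difference of −0.39 was 0.10 without pellet 7. Mcpt8, a serine protease gene known from basophils, had the largest absolute difference of all genes, −0.89 (95% interval −1.84 to 0.06), with 8.26, 7.39 and 6.75 with whole platelets, against 9.18, 7.63 and 8.27 with pellet, and the difference was −0.48 without pellet 7. Over all 10 falls the difference ran from −0.89 in Mcpt8 to 0.05 in Them6, and every interval included 0.

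**Figure D3:**
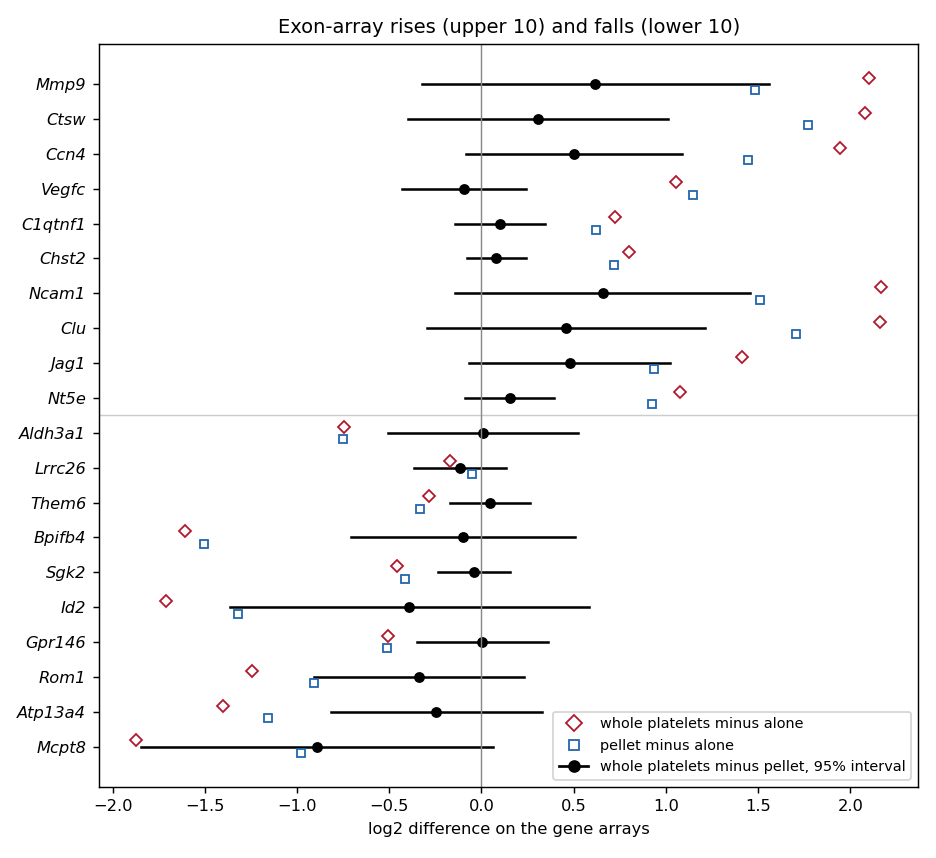
Log2 differences on the gene arrays (x axis) for the 10 largest exon-array rises and the 10 largest falls (y axis): whole platelets minus alone (diamonds), pellet minus alone (squares) and whole platelets minus pellet with its 95% interval (dots and lines). Every line crosses 0, and those of Id2 (−1.37 to 0.58), Mcpt8 (−1.84 to 0.06) and Mmp9 (−0.32 to 1.56) are the widest.

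Over the whole exon-chosen sets both platelet groups moved from cells alone by more than releasate did in the median. Of the 241 genes that rose, 236 were measured here, and their median above alone was 0.41 with whole platelets, 0.28 with pellet and 0.08 with releasate. Of them 43 rose past the threshold with whole platelets, where 0.411% of all genes did, and 23 with pellet, where 0.236% did. Of the 329 that fell, 323 were measured, with medians of −0.33 with whole platelets, −0.35 with pellet and −0.11 with releasate (−0.04, −0.06 and −0.22 on its 3 arrays), and 36 fell past the threshold with whole platelets, where 0.256% of all genes did, and 26 with pellet, where 0.181% did. On single arrays the median of the risen genes stood at 0.31, 0.36 and 0.49 with whole platelets, against 0.16, 0.39 and 0.34 with pellet. For the fallen genes it stood at −0.25, −0.42 and −0.31 with whole platelets, against −0.29, −0.37 and −0.37 with pellet. The groups overlapped in both sets. Each group shares the cells alone, so these values are given side by side.

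The direct difference of whole platelets and pellet had a median of 0.10 over the risen genes and −0.01 over the fallen genes, where the median of all genes was −0.01. It was positive in 180 of 236 risen genes (76.3%) and in 159 of 323 fallen genes (49.2%), against 47.4% of all genes. Of the risen genes 6 (2.54%) and of the fallen genes 5 (1.55%) had an unadjusted p under 0.05, near the 2.52% of all genes. The shift of the risen genes was not the same in each title number, with medians of 0.15 for number 7, −0.02 for number 8 and 0.13 for number 9. It was 0.03 without pellet 7, 0.03 without whole platelets 9 and −0.02 without both. Across the 559 genes, the difference of whole platelets and pellet had a slope of 0.06 on the exon-array difference (Pearson r 0.46), beside 0.41 for whole platelets minus alone, 0.35 for pellet minus alone and 0.10 (r 0.67) for releasate minus alone. These slopes run across genes that share arrays and are no replicates, so they describe these arrays only.

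**Figure D4:**
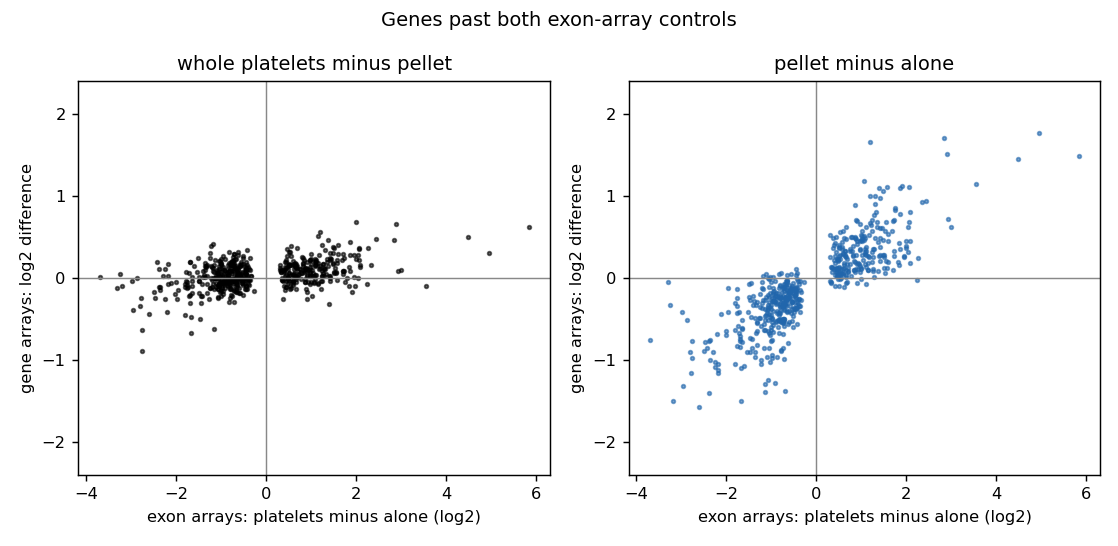
For the 559 genes that changed on the exon arrays, the exon-array difference of platelets and alone (x axis, log2) against the gene-array difference (y axis, log2) of whole platelets minus pellet (left) and pellet minus alone (right), 1 dot per gene. The left cloud climbs little, with a slope of 0.06 (Pearson r 0.46), and the right cloud climbs with a slope of 0.35 (Pearson r 0.85).

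Gene lists for the pathways that platelets are known to engage gave no member past the threshold in any of 25 lists, beside 0% of all genes. The TGF-beta response list (30 of 32 measured) had 21 positive differences and a median of 0.07. Its member Jag1, given above, had the largest difference. Fn1, fibronectin, which TGF-beta induces, had log2 levels of 12.53, 12.57 and 12.87 with whole platelets, against 12.03, 12.69 and 12.58 with pellet (difference 0.23, 95% interval −0.10 to 0.55). Pellet 7 was again the lowest, and without it the difference was 0.02. Ligands, receptors and Smads of the pathway (21 measured) had 13 positive and a median of 0.02. The tumour cells' own Tgfb1 had 6.33, 6.26 and 6.20 with whole platelets, against 6.33, 6.43 and 6.18 with pellet (difference −0.05, 95% interval −0.24 to 0.14).

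For the shift from epithelial to mesenchymal state the lists were split. EMT transcription factors had 8 of 16 positive and a median of −0.01, and mesenchymal genes had 16 of 27 positive and a median of 0.01. Snai1, which encodes the repressor Snail, had 6.06, 6.02 and 6.49 with whole platelets, against 5.94, 6.32 and 5.96 with pellet (difference 0.12, 95% interval −0.18 to 0.41, and 0.05 without pellet 7). Itga5, the fibronectin receptor subunit, had the largest difference of the mesenchymal list, with 9.62, 9.69 and 10.52 with whole platelets, against 8.24, 10.00 and 9.54 with pellet (0.68, 95% interval −0.14 to 1.51). Without pellet 7 that difference was 0.17. Among epithelial genes, the junction and keratin list had 31 of 39 positive and a median of 0.06, and the 12 identity markers were positive in 12 with a median of 0.07. The mean level of the identity markers was 9.73, 9.41 and 9.86 with whole platelets, against 9.39, 9.57 and 9.73 with pellet, so the groups overlapped and pellet 7 was lowest. Cdh1, the adherens junction protein E-cadherin, had 11.54, 11.32 and 11.70 with whole platelets, against 10.99, 11.39 and 11.55 with pellet (difference 0.21, 95% interval −0.07 to 0.49, and 0.05 without pellet 7). Krt14, a basal keratin, had 9.09, 9.50 and 10.26 with whole platelets, against 7.97, 9.69 and 9.54 with pellet, and its difference of 0.55 was 0.00 without pellet 7.

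Other signalling lists had medians of 0.00 to 0.06, where the median of all genes was −0.01 and 47.4% were positive. The NF-kappaB list had 20 of 36 positive (median 0.02), SRF and MRTF targets 16 of 23 (median 0.03), and growth factor and ERK response genes 16 of 31 (median 0.01). YAP and TEAD targets had 18 of 21 positive and a median of 0.06, and their member Ccn2, a matricellular growth factor also induced by TGF-beta, had 9.15, 8.89 and 9.93 with whole platelets, against 8.61, 9.04 and 9.64 with pellet. The difference for Ccn2 was 0.22 (95% interval −0.42 to 0.87) and −0.02 without pellet 7. Irf1, an interferon regulatory factor, had 8.59, 8.76 and 8.87 with whole platelets, against 7.85, 8.80 and 8.55 with pellet (difference 0.34, 95% interval −0.09 to 0.76). Csf2, the cytokine GM-CSF, had 7.33, 6.59 and 6.71 with whole platelets, against 8.03, 6.66 and 7.14 with pellet (difference −0.40, 95% interval −1.27 to 0.47). Both intervals included 0, and without pellet 7 the differences were 0.06 for Irf1 and −0.03 for Csf2. Dusp1, a phosphatase that ends MAP kinase signals, and Cnn2, an actin-binding calponin of the SRF list, had differences of 0.23 and 0.37, or 0.31 and 0.08 without pellet 7. Acute phase and STAT3 genes had 11 of 22 positive (median 0.00), and interferon and antigen presentation genes 15 of 22 (median 0.05).

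Matrix proteolysis genes had 15 of 32 positive (median −0.01), and matrix and crosslinker genes 19 of 31 (median 0.02). Mmp3, the protease stromelysin, had 7.74, 6.72 and 7.08 with whole platelets, against 8.75, 6.86 and 7.83 with pellet, and Serpinb2, an inhibitor of plasminogen activators, had 6.94, 6.52 and 7.04 with whole platelets, against 8.11, 6.75 and 7.80 with pellet. Both were highest on pellet 7 and lowest on whole platelets 8, with differences of −0.63 (95% interval −1.68 to 0.41) and −0.72 (−1.96 to 0.52), or −0.17 and −0.44 without pellet 7. Mammary secretory genes had 7 of 16 positive (median −0.04), and the casein gene Csn3 had 7.75, 6.20 and 5.76 with whole platelets, against 8.49, 6.47 and 6.61 with pellet, a difference of −0.62 that was 0.03 without pellet 7.

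Lists of growth and metabolism had small positive medians. Proliferation genes had 17 of 27 positive (median 0.06), hypoxia and glycolysis genes 15 of 26 (median 0.06), cholesterol synthesis genes 14 of 18 (median 0.05), endoplasmic reticulum and amino acid stress genes 16 of 24 (median 0.05), and oxidative stress and haem genes 15 of 21 (median 0.03). Lss, a cyclase of sterol synthesis, had 9.75, 9.44 and 10.45 with whole platelets, against 8.72, 9.59 and 9.71 with pellet (difference 0.54, 95% interval −0.05 to 1.13, and 0.23 without pellet 7). The mitotic kinase gene Aurkb had 10.25, 10.01 and 10.56 with whole platelets, against 9.0, 10.34 and 10.25 with pellet, and its difference of 0.41 was −0.02 without pellet 7. Car9, a carbonic anhydrase induced in hypoxia, had 10.53, 9.71 and 10.77 with whole platelets, against 9.46, 9.88 and 10.44 with pellet (difference 0.41, 95% interval −0.24 to 1.06, and 0.18 without pellet 7). Over all 25 lists, pellet 7 had the lowest mean of the 6 arrays in 13 and whole platelets 9 the highest in 12.

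**Figure D5:**
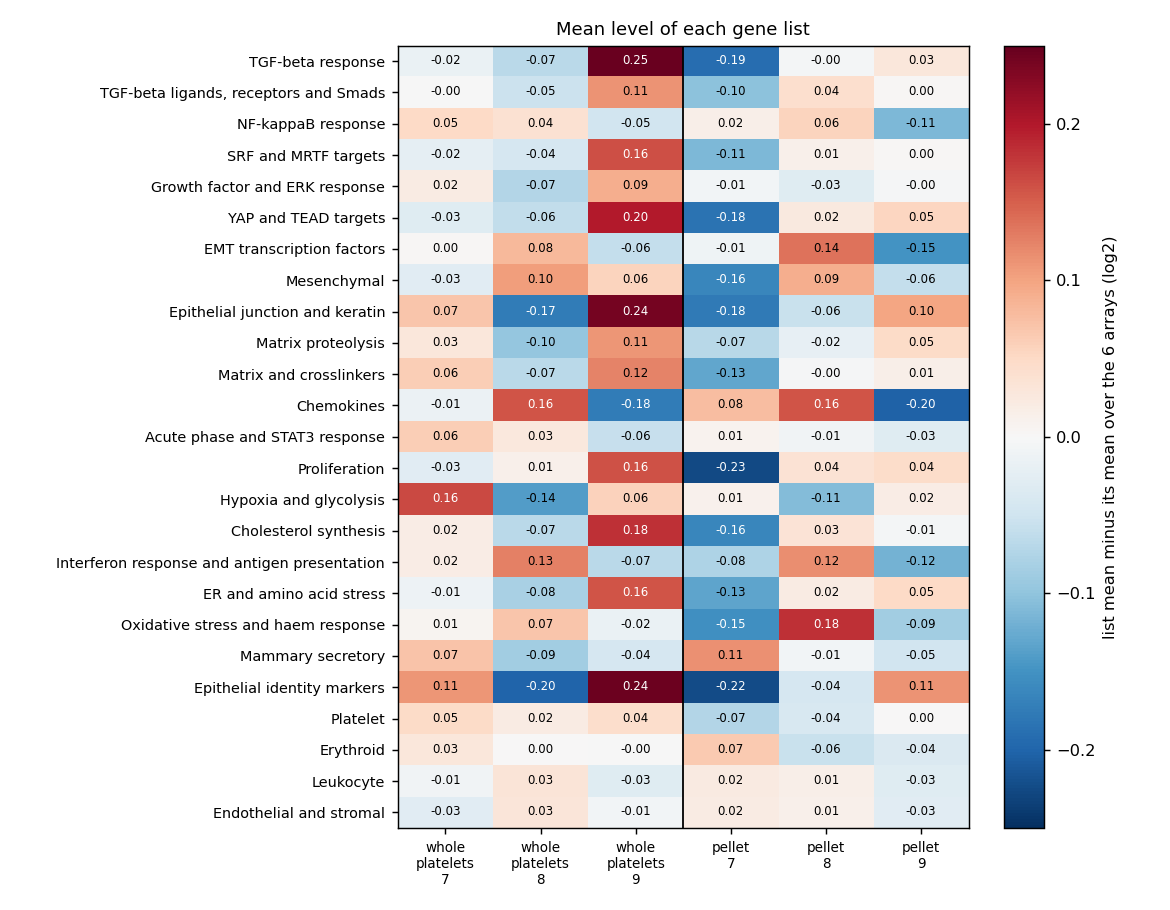
Mean log2 level of each of 25 gene lists (rows) on the 3 whole platelet and 3 pellet arrays (columns), minus the mean of that list over the 6 arrays (colour and number). Whole platelets 9 reaches 0.25 and pellet 7 −0.19 in the TGF-beta response list, while the other whole platelet and pellet arrays of that list lie between −0.07 and 0.03.

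Some genes and gene lists followed the title number more than the platelet fraction. The EMT factor list averaged 6.53, 6.61 and 6.46 with whole platelets, against 6.51, 6.66 and 6.37 with pellet. Number 8 was the highest for this list with releasate and in cells alone too. The mesenchymal, interferon and oxidative stress lists also had number 8 highest in every group. The hypoxia and glycolysis list had number 8 lowest in every group. Ccl2, a chemokine that draws monocytes, had log2 levels of 6.80, 9.51 and 5.74 with whole platelets, against 6.45, 9.24 and 5.67 with pellet. Number 8 was the highest in both groups, and also among releasate arrays, and the interval of the difference of 0.23 reached from −2.06 to 2.53. This interval is unpaired, so it includes the spread between title numbers. The intermediate filament gene Vim had 9.90, 10.85 and 9.24 with whole platelets, against 9.63, 10.87 and 9.15 with pellet. Zeb1, a repressor of E-cadherin, had 6.75, 7.88 and 6.34 with whole platelets, against 6.63, 7.60 and 6.12 with pellet. Whole platelets 8, pellet 8 and releasate 8 carry a separate, lower range of run numbers in their titles, and alone 8, which carries a run number of the higher range, was also the highest of its group for these genes. Chemokine genes as a list had 9 of 18 positive and a median of 0.00.

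Of the genes whose 3 whole platelet and 3 pellet values did not overlap (1227 genes, 6.15%), 466 (2.34%) lay higher and 761 (3.82%) lower with whole platelets. A random order of 3 against 3 values would leave 10% of genes without overlap, more than the 6.15% found. The 10 largest by size at an unadjusted p under 0.05 that lay higher with whole platelets were Gm11149, Dgka, Cul7, Tmem229b, Upf1, Tbc1d7, Atpaf2, Limd1, Zfp637 and Clcn6, with differences of 0.38 to 0.50. That of Tmem229b, 0.48, was 0.28 with the mean of its probe sets. The predicted gene Gm11149 had 6.23, 6.18 and 6.06 with whole platelets, against 5.52, 5.64 and 5.83 with pellet (0.50, limma unadjusted p = 0.00158). Pellet 7 was its lowest array too, and the difference was 0.42 without it. Dgka, a diacylglycerol kinase, had 9.34, 9.31 and 9.83 with whole platelets, against 8.65, 9.24 and 9.11 with pellet (0.49, limma unadjusted p = 0.0165, and 0.32 without pellet 7).

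The 10 largest that lay lower with whole platelets were Zfp709, Slc39a1, C130073F10Rik, Rgs2, Omd, Coa6, Speer3, BC031361, Glrp1 and Bard1, with differences of −0.52 to −0.30. Zfp709, a zinc finger gene, had 5.64, 5.86 and 5.82 with whole platelets, against 6.5, 6.31 and 6.06 with pellet (−0.52, limma unadjusted p = 0.00204). Slc39a1, a zinc importer, had 7.63, 7.63 and 7.29 with whole platelets, against 7.88, 7.94 and 7.94 with pellet (−0.41, limma unadjusted p = 0.0118). With the mean of its probe sets the difference of Slc39a1 was −0.19. Rgs2, a regulator of G protein signalling, had 5.35, 5.42 and 5.06 with whole platelets, against 5.60, 5.89 and 5.48 with pellet. All 20 had the same adjusted p of 0.974, far from the threshold.

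The releasate offers a second view of the soluble part, added to cells without platelet bodies, and shares no array with whole platelets or pellet. For releasate minus alone, 0 of 19938 genes (0%) passed in the limma fit, with 563 at an unadjusted p under 0.05, and whole platelets minus releasate had 9 (0.0451%), 7 of them (0.0351%) higher with whole platelets. The difference of the differences, whole platelets minus pellet less releasate minus alone, also had 0 genes past the threshold (0%), with 562 at an unadjusted p under 0.05. The genes of smallest p in each direction were Pidd1, Idua and Arhgef10l, and Angpt2, Zfp709 and Trav14-1. For Trav14-1 the difference of differences, −0.37, was −0.10 with the mean of its probe sets. Angpt2, a ligand of the endothelial receptor Tie2, had 5.10, 5.19 and 5.20 with whole platelets, against 5.43, 5.26 and 5.29 with pellet, and 5.33, 5.56 and 5.51 with releasate, against 5.23, 5.04 and 5.18 in cells alone. Its difference of differences was −0.49 (95% interval −0.73 to −0.25, unadjusted p = 0.000934, adjusted p = 0.983). Pidd1, a death domain gene of the p53 response, had a difference of differences of 0.35 (95% interval 0.17 to 0.53), with 0.11 between whole platelets and pellet and −0.24 between releasate and alone. Over all genes the 2 differences had a correlation of −0.01, and over the 559 exon-chosen genes of 0.38, across genes measured on the same arrays, which are no replicates.

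The list means of other blood and tissue cells overlapped between the groups. Of their genes, 1 erythroid marker lay higher and 1 endothelial or stromal marker lower with whole platelets without overlap, where 2.34% and 3.82% of all genes did, and 0 of 28 leukocyte markers were without overlap. The leukocyte list had a mean level of 5.04, 5.08 and 5.02 with whole platelets, against 5.07, 5.07 and 5.02 with pellet, with 11 of 28 genes positive and a median difference of −0.02. Ptprc, the pan-leukocyte marker, had 4.47, 4.60 and 4.48 with whole platelets, against 4.67, 4.59 and 4.53 with pellet. The erythroid list (9 of 19 measured) had means of 6.07, 6.04 and 6.04 with whole platelets, against 6.11, 5.98 and 6.00 with pellet, and a median difference of 0.01 with 5 of 9 positive. Endothelial and stromal markers had means of 5.0, 5.06 and 5.02 with whole platelets, against 5.05, 5.04 and 5.0 with pellet, and a median difference of −0.03 with 4 of 14 positive. Cells alone had means of 5.02 to 5.07 for leukocytes, 6.12 to 6.17 for erythroid cells and 4.97 to 5.0 for endothelial and stromal cells. The haemoglobin genes Hba-a1 and Hbb-b1 were not analysed here.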

How the data were processed

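Gene arrays of 12 samples (3 whole platelets, 3 pellet, 3 releasate, 3 alone) and exon arrays of 13 samples were used as 2 separate tables. The values are deposited log2 expression values, and Partek 6.5 (gene arrays) and 6.4 (exon arrays) with RMA are named per the submitters' processing notes; the options are not given in the sources used here. Of 35556 gene-array probe sets, 21789 had 1 gene symbol, 1621 several and 12146 none. Groups were taken from source names. Each table was fitted with limma 3.58.1 (R 4.3.3), all groups in 1 fit, no filter and no block, with p values adjusted by Benjamini-Hochberg over all genes and a threshold of 0.05; the fit was tested on simulated data. No signal was tested against background. Title numbers were not taken to pair arrays, since the labels name no block. The deviations of same-numbered whole platelet and pellet arrays correlated at 0.20, −0.15 and 0.57 for 7, 8 and 9. Those of arrays with different numbers correlated at −0.51 to 0.44, so these values do not settle whether the numbers pair arrays. Some lists followed the number in every group, as given above. All intervals are unpaired, so for genes that follow the number they include the spread between numbers. With the number as a block over the 12 arrays, 0 genes passed for whole platelets against pellet. Against alone, 454 passed with whole platelets and 359 with pellet.

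The genes named were, in each direction, up to 10 of the largest differences without overlap at an unadjusted p under 0.05, the 2 largest differences of each of 25 gene lists, and a short fixed set. The 10 largest exon-array rises and falls, and the genes higher at lysis mixing, were added after values had been seen. The members and lists were chosen with earlier results of these data known. The lists cover TGF-beta, NF-kappaB, SRF, ERK, YAP, EMT, mesenchymal, epithelial, matrix, chemokine, acute phase, proliferation, metabolic, stress, interferon, mammary, platelet, erythroid, leukocyte and stromal genes. Alternatives were other sample sets, blocks, normalizations, weights, probe-set rules and each array left out.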

Additional observations from a re-analysis of the deposited data

Results flagged for a closer look

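On the exon arrays, which were used here to choose genes and for the slopes across genes, 1 of 58 groups of values tested held an array far from the others of its group. Ncam1 had a log2 level of 7.23 on exon array platelets 4, against 7.79 to 7.99 on the other exon arrays with platelets. Chance flags about 1 in 20 such groups.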

How the results depend on the processing

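Whole platelets against pellet gave 0 genes past the threshold under every alternative run, the replicate block over 12 or over 6 arrays included. With none past the threshold, a reversal of a passed value could not occur. The count at an unadjusted p under 0.05, 503 as reported, was 262 with only the 6 arrays, 759 with the replicate block over 12 arrays, 1818 with only the arrays of the higher title run numbers, 1396 with array weights, 157 above the median level, 1049 over every probe set, and 330 to 1320 with 1 array left out. Whole platelets against alone, 133 as reported, gave 454 with the replicate block, 1 with only the arrays of the higher title run numbers, 464 with array weights, 47 over every probe set, 225 without whole platelets 7 and pellet 7, and 21 to 246 with 1 array left out. Pellet against alone, 83 as reported, gave 359 with the replicate block, 51 with the title run numbers as a block, 4 with only the arrays of the higher title run numbers, 501 with array weights, 15 over every probe set, 193 without whole platelets 9 and pellet 7, and 8 to 133 with 1 array left out. The median over the exon-risen genes was −0.0246 without whole platelets 9 and pellet 7. With array weights it was 0.0141, below the 0.0604 of the exon-fallen genes. The cause of these changes was not tested. Of 105 named values, 0 passed in any setting (smallest limma adjusted p 0.531, array weights). The other sign was taken by 18 with array weights and by 18 without pellet 7. It was taken by 16 without whole platelets 7 and pellet 7, and by 45 without both whole platelets 9 and pellet 7. The removal of 2 arrays, the block over 6 arrays and the exon-set medians were chosen after seeing the data. With 3 arrays a group, the number of arrays limits the precision, and how far signals lie above background was not analysed here.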
